A study of Danio rerio with 18 samples.

Results

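The 7 genes were cmasa, ptgr1, nlgn3a, lmbr1l, tdg.2, stk35 and nedd4l. Each had a liver signal that set 1 laboratory strain of zebrafish apart from the others in at least 1 sex. At tdg.2, lmbr1l and nedd4l only WIK males stood apart, while WIK females overlapped other females. At stk35 WIK males were highest and WIK females overlapped TU females. AB fish lay below the other strains without overlap in both sexes, though only narrowly at probe A_15_P744761. The 7 genes were chosen because the study lists at least 1 probe of each for a difference between strains. That difference is what selected them and is given here as a description without a test. Every probe assigned to these symbols by its transcript accession was taken, either through the RefSeq gene table or through the lists of the study. The 7 genes, of 13413 that could be named, had 14 of the 43603 probes, of which 8 are listed for a strain difference and 6 are not. Livers came from 18 adults, aged 12 to 18 months per the labels and within a narrower range per the methods, and each was hybridized to its own one-colour array. The AB, Tuebingen (TU) and WIK strains contributed 3 fish of each sex. All fish were untreated wild types with no named allele, bred in one facility and sexed by eye at dissection. According to the methods, AB livers were taken in the morning and TU and WIK livers in the afternoon. Where AB differs from both other strains, strain and hour of collection therefore cannot be told apart. In pieces of whole liver, fewer cells of a type and less RNA per cell cannot be told apart either.

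The 7 genes belong to unrelated processes. cmasa encodes a CMP-sialic acid synthetase, which activates sialic acid so that it can be added to the ends of glycan chains, and ptgr1 encodes prostaglandin reductase, which in mammals reduces eicosanoids and reactive lipid aldehydes. nlgn3a is a neuroligin, a cell adhesion protein of the synapse that binds neurexins, and lmbr1l is a membrane protein related to the LMBR1 family that acts in lymphocytes of the mouse. tdg.2 is a thymine DNA glycosylase, which removes mispaired thymine and oxidized methylcytosine in base excision repair. stk35 is a serine/threonine kinase that in human cells binds the cytoskeletal protein PDLIM1. nedd4l is a HECT ubiquitin ligase that in mammals marks sodium channels and other membrane proteins for removal and is itself controlled by SGK kinases. No sequence of these genes or probes was used here.

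Median spot signal ran from 36 to 70.5 per array against a median background of 22 to 32, and 44.9% to 67.3% of spots were well above background by the scanner's own comparison. No spot was saturated (0 spots). Values are log2 signal after background correction and quantile normalization of the 18 arrays, so that 1 unit is a 2-fold difference, and the signal of one probe is not set against that of another. All 13 hepatocyte marker genes with a probe were well above background on every array. TU female 3 stood apart from the other females of its strain. Its summed hepatocyte marker signal was 2460000 on the linear scale, against 949000 and 1070000 in the other females of TU, and 0 probes were called between the sexes of TU with it against 353 (0.81%) without it. Exocrine pancreas markers also moved with strain, with summed linear signals of 16900 to 26500 in AB males, 109000 to 2080000 in TU males and 339000 to 2650000 in WIK males. In females they ran from 48900 to 170000 in AB, 237000 to 958000 in TU and 87200 to 590000 in WIK. Of the 15 pancreas genes with a probe, 14 or 15 were well above background on every array of each group, and their part in the results was not tested. Leukocyte markers were lower in AB without overlap, with summed linear signals of 2160 to 4950 in AB males against 7590 to 20700 in TU and 5630 to 8120 in WIK males, and of 3810 to 5750 in AB females against 8580 to 21000 and 8620 to 12100. Of the 9 leukocyte genes with a probe, 6 to 8 were well above background on every array of a group, and their part was not tested.

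Strains were compared in each sex with an F test in limma over the 3 pairwise contrasts, and a probe was called at a Benjamini-Hochberg adjusted p of at most 0.05 and a difference of at least 2-fold. In males 10 of the 14 probes were called against 3.66% of all probes, 7 of the 8 listed and 3 of the 6 others. In females 4 were called against 4.73% of all probes, 3 listed and 1 other. Since the listed probes were selected on this contrast, nothing is read from these counts. A probe that is listed in 1 sex only was left off the list of the other sex by the same arrays, so its values and p there are no independent test either. Of the 7 genes, 5 were marked by WIK at a listed probe, in males or in both sexes, and 2 by AB. A second listed probe of nlgn3a had AB males highest and TU males lowest. Over all probes, WIK males lay above every other male at 4.2% and below at 3.51%, and AB males lay above at 6.54% and below at 5.9%. For females these shares were 2.43% and 3.17% in WIK and 6.78% and 4.85% in AB. The plot of the listed probes shows each fish.

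**Figure D1:**
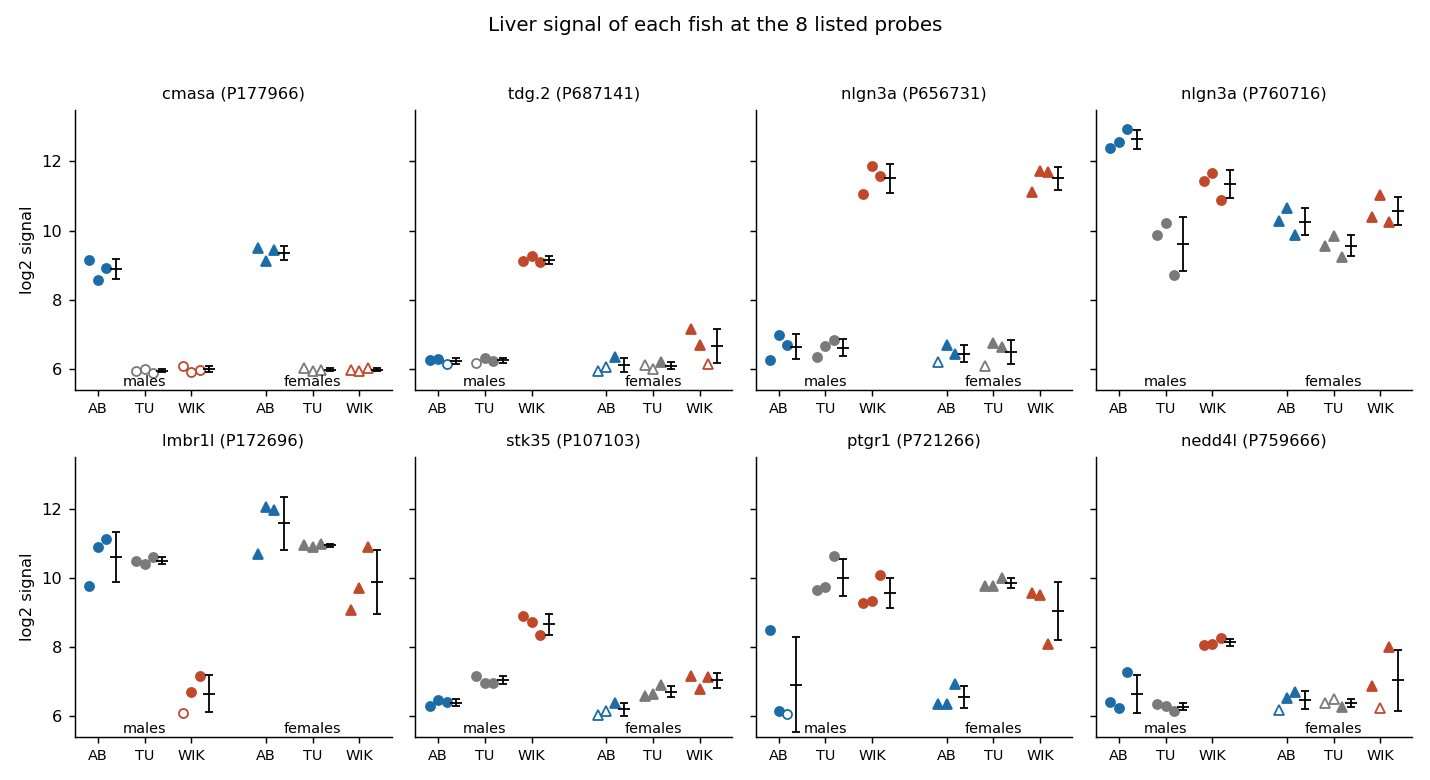
Log2 liver signal (y axis) at the 8 listed probes in AB, TU and WIK males (circles) and females (triangles), with 1 symbol per fish, open symbols for a probe not well above background on that array, and bars for the mean and SD of 3 fish. cmasa is raised in the 6 AB fish only, nlgn3a probe A_15_P656731 in WIK fish of both sexes, and tdg.2, stk35 and nedd4l are highest in WIK males.

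The listed cmasa probe, A_15_P177966 (accession BC129257), gave signal in AB livers and in no others. It lies on chromosome 4 at 13792738–13792797 of the danRer7 build. Its log2 signal was 9.15, 8.57 and 8.92 in AB males and 9.49, 9.11 and 9.44 in AB females. In the 12 TU and WIK fish it was 5.89 to 6.09 and nowhere well above background. The AB groups lay far above the others without overlap, by at least 7.43-fold in males and at least 10.1-fold in females. For these bounds each dim array counted with the probe's own signal or, where higher, with its dimmest detected probe.

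The other cmasa probes pointed the opposite way. A_15_P161376 and A_15_P749676, both assigned to the RefSeq transcript NM_001040252, were well above background in all 18 fish. At A_15_P161376 AB males had 9.47, 10.03 and 9.24, below TU males at 10.61, 10.56 and 10.50 and WIK males at 10.41, 10.64 and 10.49. AB females overlapped the rest, with 9.80, 9.26 and 9.78 against 9.93, 9.93 and 10.96 in TU and 9.83, 9.79 and 9.71 in WIK. A_15_P749676 gave the same picture, with 7.5 to 8.32 in AB males against 8.84 to 9.40 in the other males. AB minus the mean of the other strains was -0.95 and -1.1 on the log2 scale in males and -0.41 at both probes in females. These probes correlated with each other at r = 0.93 over the 18 arrays but at -0.66 and -0.71 with the listed probe. The call of A_15_P749676 in males was lost without AB male 1, AB male 3, TU male 1, TU male 3 or any single WIK male (adjusted p from 0.0545 to 0.116 in limma), and A_15_P161376 was called without AB male 2 (0.00567). cmasa is thus a gene whose listed probe was not matched by its other probes, and whether the strains differ in sequence or transcript form under the listed probe was not tested. Only the study's list assigns A_15_P177966 to cmasa.

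**Figure D2:**
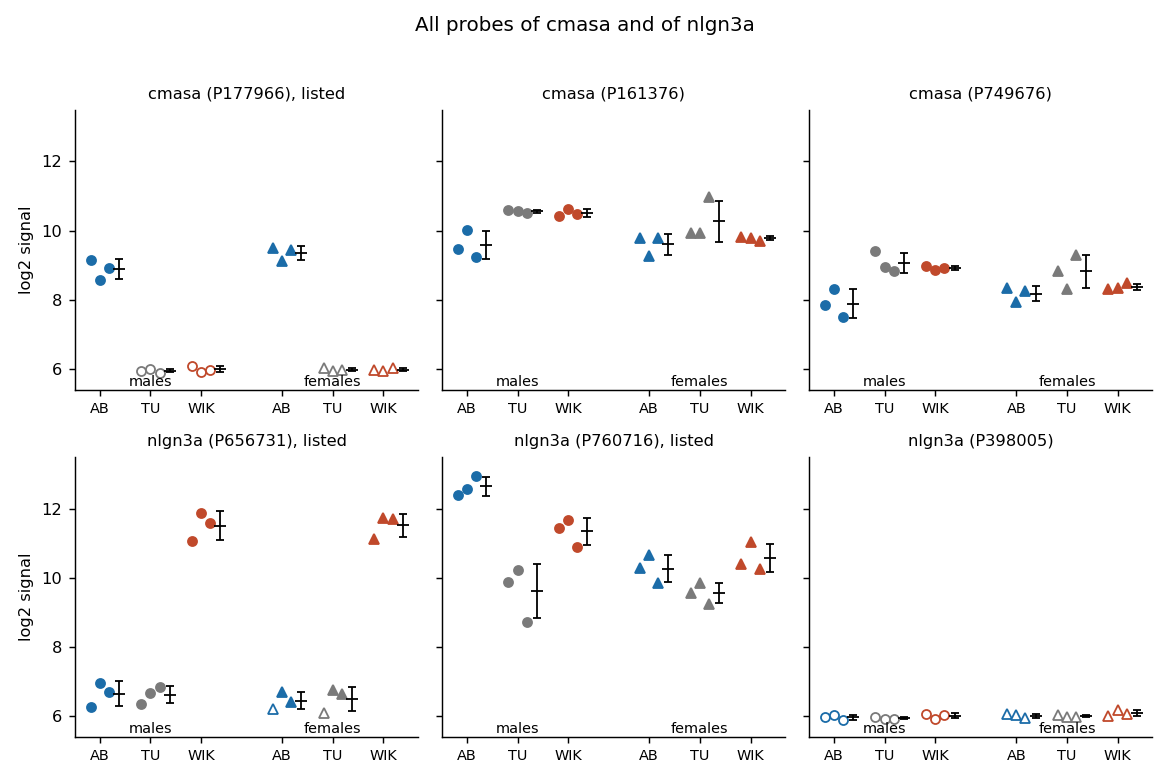
Log2 liver signal (y axis) at the 3 probes of cmasa and the 3 probes of nlgn3a by strain and sex, 1 symbol per fish, circles for males, triangles for females, open symbols not well above background, bars for mean and SD of 3 fish. At cmasa the listed probe is high in AB alone while the other probes are high in every strain, and the nlgn3a probes each show another pattern.

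ptgr1 was low in AB livers at both of its probes, which are assigned to NM_001008651. The listed probe, A_15_P721266, lies on the minus strand of chromosome 7 at 25545504–25545563 (danRer7) and was listed by the study in females. Females had 6.36, 6.36 and 6.93 in AB, 9.75, 9.77 and 10.00 in TU and 9.55, 9.49 and 8.09 in WIK. AB females minus the mean of the other strains gave -2.89, a 7.42-fold lower signal, without overlap, and WIK female 3 was the lowest of the remaining fish. Males had 8.50, 6.15 and 6.07 in AB, 9.66, 9.72 and 10.63 in TU and 9.28, 9.34 and 10.07 in WIK. AB male 1 was thus far above the other AB males, although still below all TU and WIK males.

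In males, in which ptgr1 is not listed, the strain difference was -2.87, with an adjusted p of 0.057 from the F test in limma, which missed the threshold. Without AB male 1 it was -3.67 with an adjusted p of 0.011 in the same test. The second probe, A_15_P114373, picked out the same fish, with 9.59, 6.37 and 6.71 in AB males and 8.32 in WIK female 3. Its AB difference was -2.84 in males and -2.91 in females, and it correlated with the listed probe at r = 0.99 over the 18 arrays. Its call in females was lost without AB female 1 or AB female 2 (adjusted p = 0.056 and 0.0604). Both ptgr1 probes therefore agreed in strain and in single fish. Summed exocrine pancreas signal was 87200 in WIK female 3 against 289000 and 590000 in the other WIK females. It was 16900 in AB male 1 against 24200 and 26500 in the other AB males. Summed leukocyte signal was lowest in AB in both sexes, as given above. The part of either cell type in the ptgr1 values was not tested.

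On the values used here, nlgn3a had the largest strain difference of the 14 probes. Its listed probe A_15_P656731 (accession BC063995) had 11.05, 11.87 and 11.59 in WIK males and 11.13, 11.73 and 11.69 in WIK females. The other fish had 6.09 to 6.97, and AB female 1 and TU female 1 were not well above background. WIK fish of both sexes stood 4.88 and 5.05 above the mean of the other strains, or 29.4-fold in males and 33.2-fold in females, with no overlap. Within the fish of each replicate number the difference ran from 4.75 to 5.06 in males and from 4.99 to 5.16 in females. Replicate numbers did not match slides across strains, and WIK fish numbered 3 were scanned on another day than AB and TU fish so numbered. Such ranges, here and below, are thus not matched for slide or scan day.

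The other probes assigned to nlgn3a did not follow it. A_15_P760716 (NP13322978), on the minus strand of chromosome 14 at 18200478–18200537 (danRer7), is listed by the study in males, where AB was highest with 12.39, 12.57 and 12.95. TU males had 9.87, 10.22 and 8.73 and WIK males 11.45, 11.67 and 10.90, so the males of the 3 strains did not overlap. Females were closer, with 10.27, 10.65 and 9.86 in AB, 9.57, 9.85 and 9.25 in TU and 10.40, 11.04 and 10.26 in WIK. In females, where the probe was not listed, the F test gave an adjusted p of 0.129, which did not pass, while a fit blocked on replicate number gave 0.00986, a call. The remaining probe, A_15_P398005 for the RefSeq transcript NM_001166332, was between 5.90 and 6.17 and well above background on none of the 18 arrays. The probe pairs of nlgn3a correlated at only 0.20, 0.44 and 0.06 over the 18 arrays. The 2 listed probes carry the symbol through the study's list alone, and the RefSeq table gives nlgn3a and nlgn3b as synonyms of each other. The nlgn3b probe was likewise well above background on no array. Of the 12 neuron marker genes with a probe, 0 to 3 were well above background on every array of a group, and their summed linear signal stayed between 830 and 1100 in all groups. The only probe of an annotated nlgn3a transcript was thus below detection, and whether the listed probes measure nlgn3a was not tested.

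lmbr1l was low in WIK males. Its single probe, A_15_P172696 (NM_198874), lies on chromosome 23 at 27968043–27968102 (danRer7). Log2 signal was 6.09, 6.69 and 7.17 in WIK males, the first not well above background, against 9.77, 10.88 and 11.13 in AB males and 10.49, 10.39 and 10.60 in TU males. The difference of WIK from the mean of the other males was -3.89, or 14.9-fold without overlap, and ran from -4.04 to -3.7 within each replicate number. On the scanner's processed signal the difference was -6.09, and without background correction it was -4.49. WIK females had 9.06, 9.71 and 10.88 and overlapped AB females at 10.70, 12.06 and 11.97, while TU females were close together at 10.95, 10.88 and 10.98. In females, where lmbr1l is not listed, the strain difference was -1.37 with an adjusted p of 0.174 from the F test in limma. There was no other probe to compare.

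tdg.2 was a WIK male signal, at a probe that only the study's list assigns to this gene. Its single probe, A_15_P687141 (ENSDART00000123207), on chromosome 25 at 19451430–19451489 (danRer7), had 9.12, 9.28 and 9.08 in WIK males. All AB and TU fish had 5.94 to 6.34, well above background on only 6 of 12 arrays, and WIK females had 7.15, 6.68 and 6.15. WIK males lay 2.92 above the other males, or 7.57-fold, and by 2.89 to 2.97 within each replicate number. The size depends on how the dim groups were handled, with 5.66 on the scanner's processed signal, 3.63 without background correction and 3.69 with an offset of 16. Among females WIK lay 0.55 higher with an adjusted p of 0.318 in the F test, which did not pass, and WIK female 3 was not well above background. The paralog tdg.1 had 2 probes, whose mean log2 signals ran from 6.03 to 6.55 over the 6 groups and which were not called between strains in either sex.

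stk35 was highest in WIK males at all 3 of its probes, which are assigned to NM_001077616. At the listed probe, A_15_P107103, on the minus strand of chromosome 23 at 42135707–42135766 (danRer7), males had 6.28, 6.46 and 6.42 in AB, 7.17, 6.97 and 6.97 in TU and 8.90, 8.72 and 8.33 in WIK. The males of the 3 strains formed a series without overlap. Females had 6.03, 6.14 and 6.39 in AB, 6.58, 6.63 and 6.89 in TU and 7.17, 6.78 and 7.13 in WIK, in the same order of means but closer together. Among females it was AB that lay apart, below all others without overlap, while TU and WIK overlapped. AB minus TU was -0.51 and TU minus WIK -0.33 in females, and -0.93 and -0.17 at A_15_P739506. At A_15_P744761 they were -0.1 and -0.34, so there WIK females lay farther from TU than AB females did. Strain and hour of collection cannot be told apart in the difference of AB from the other strains. At A_15_P107103 the F test in females, where that probe is not listed, gave an adjusted p of 0.0332. The largest pairwise difference was 0.84 and so below 2-fold, and the probe was not called. Leaving out AB female 1, AB female 2, TU female 1, TU female 2, WIK female 1 or WIK female 3 raised this adjusted p to between 0.0571 and 0.122. A_15_P739506, at 0.0543 in females, was called without TU female 1 or TU female 3 (0.0346 and 0.0225).

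In males the other stk35 probes followed the listed one. A_15_P739506 had 10.23, 10.37 and 9.72 in WIK males, 8.48, 8.18 and 8.44 in TU males and 7.24, 7.30 and 7.78 in AB males. A_15_P744761 was dimmer, with 7.2 to 7.83 in WIK males against 6.2 to 6.64 in the other males. WIK males lay above the mean of the other males by 1.94 at the listed probe, 2.20 at A_15_P739506 and 1.13 at A_15_P744761. The 3 probes correlated at 0.97, 0.94 and 0.86 over the 18 arrays. The call of A_15_P744761 in males was lost without WIK male 2 (adjusted p = 0.0561). Over all genes with several probes, 15068 pairs of probes of 1 gene had a median correlation of 0.67 (quartiles 0.34 and 0.88), and 9.64% were below 0. The stk35 and ptgr1 pairs thus lay above the median, and the cmasa pairs that hold the listed probe were below 0. The paralog stk35l had 4 probes, of which none was called between strains in either sex.

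**Figure D3:**
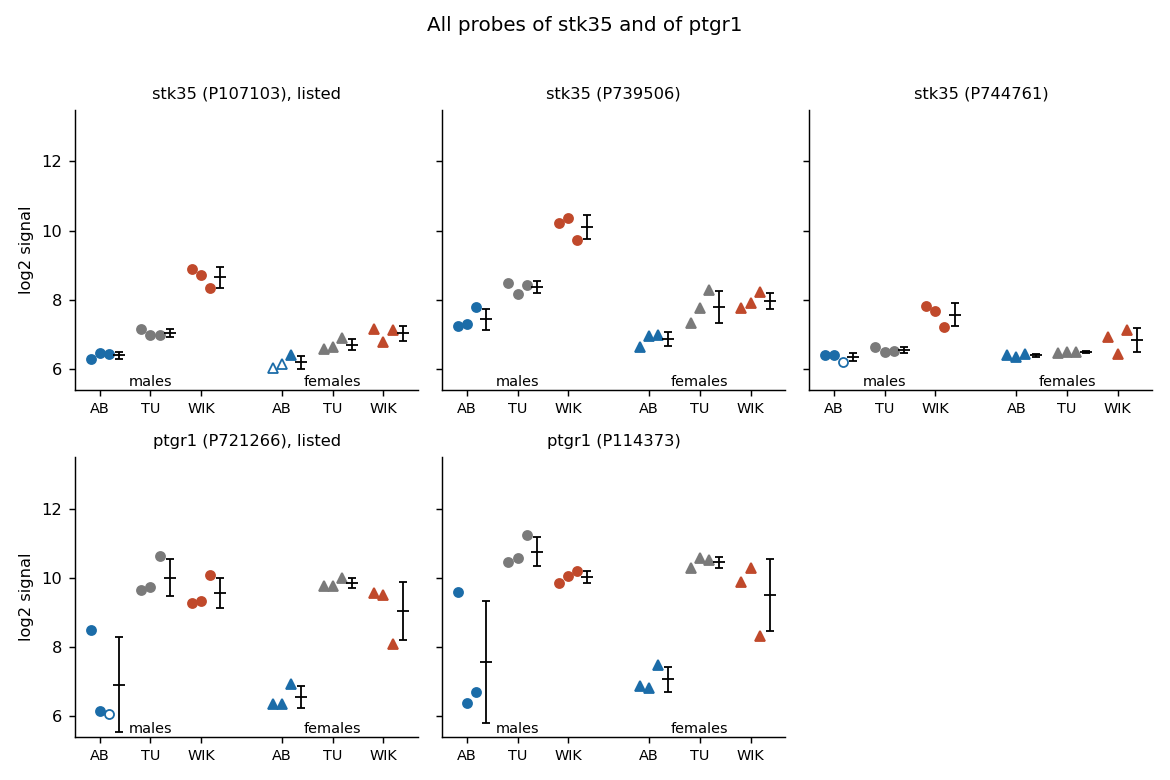
Log2 liver signal (y axis) at the 3 probes of stk35 and the 2 probes of ptgr1 by strain and sex, 1 symbol per fish, circles for males, triangles for females, open symbols not well above background, bars for mean and SD of 3 fish. WIK males are highest at each stk35 probe, and AB male 1 (high for its group) and WIK female 3 (low for its group) stand out at both ptgr1 probes.

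nedd4l was raised in WIK males at its single probe, A_15_P759666 (NP13320298), on chromosome 21 at 9541641–9541700 (danRer7). WIK males had 8.06, 8.08 and 8.25, above AB males at 6.41, 6.23 and 7.26 and TU males at 6.34, 6.30 and 6.15. The difference was 1.68, or 3.2-fold, and ran from 1.54 to 1.81 within each replicate number. WIK females were spread out, with 6.87, 6.23 and 7.99, and overlapped AB females at 6.18, 6.52 and 6.69 and TU females at 6.39, 6.49 and 6.26. Their strain difference of 0.61 had an adjusted p of 0.605 in the F test, and the call in males was lost without WIK male 1 or WIK male 2 (adjusted p = 0.0536 and 0.0561). The study's list alone assigns this probe to nedd4l.

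The sexes were then compared within each strain, a contrast other than the one that chose the genes. The WIK males entered both contrasts, and tdg.2, lmbr1l, stk35 and nedd4l are listed for strain in males and not in females. A gap between the sexes of WIK at these genes therefore partly follows from the choice. The same holds for nlgn3a probe A_15_P760716 in AB. The study also lists tdg.2 for its sex difference in WIK and that nlgn3a probe for its sex difference in AB. None of these differences is independent evidence, and nothing is read from the counts. In WIK 4 of the 14 probes were called against 1.39% of all probes. tdg.2 was higher in WIK males than in WIK females by 2.50 (standard error 0.25, adjusted p = 0.0149 in limma), by 1.97 to 2.93 on the slides that each male shared with a female. stk35 was higher in WIK males by 1.62 (standard error 0.19, adjusted p = 0.0201) at the listed probe and by 2.14 (standard error 0.21, adjusted p = 0.014) at A_15_P739506. The remaining probe was 0.75 higher with an adjusted p of 0.224. lmbr1l was lower in WIK males, with a difference of -3.23 (standard error 0.52, adjusted p = 0.0461) and of -3.71 to -2.97 on each slide. nedd4l was 1.1 higher in WIK males (adjusted p = 0.323), with 0.25 to 1.85 on each slide, which did not pass. Summed ovary marker signal was 836 to 12600 in WIK females against 515 to 549 in WIK males, with 2 of 8 genes well above background on every array of the females and 0 in the males, and its part was not tested.

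Deviations from group means correlated only weakly between same-numbered WIK males and females, at 0.20, 0.12 and 0.12. In a limma fit blocked on that number only lmbr1l stayed called in WIK. There tdg.2 had an adjusted p of 0.0521 and the stk35 probes of 0.0627 and 0.0652. Single WIK fish decided these calls too. tdg.2 was not called without WIK male 1, WIK male 2 or WIK female 2 (adjusted p from 0.0565 to 0.0967), and lmbr1l was not called when any 1 of the 6 WIK fish was left out (0.0533 to 0.197). stk35 was not called at the listed probe without WIK male 1, WIK male 2 or any single WIK female (0.0507 to 0.122), and not at A_15_P739506 without WIK male 1, WIK male 2 or WIK female 2 (0.0537 to 0.0818).

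In AB 1 of the 14 probes was called between the sexes against 2.08% of all probes. nlgn3a probe A_15_P760716 was higher in AB males by 2.38 (standard error 0.24, adjusted p = 0.0155 in limma), and by 1.92 to 3.08 on each shared slide. This call was lost with the replicate number or the scan day as a block (adjusted p = 0.0758 for each), and without AB male 2 or AB female 1 (0.0534 and 0.0639). At nlgn3a probe A_15_P656731 the sexes of WIK differed by -0.01 with a standard error of 0.26. In TU 0 of the 14 probes were called, as were 0 of all probes in limma (0%; 1800 had an unadjusted p under 0.05), and 0 of the 14 were called without TU female 3. The differences in TU ran from -0.44 at lmbr1l to 0.57 at stk35 probe A_15_P739506.

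Whether the strain difference itself differed between the sexes was tested in 1 limma fit of all 18 arrays. It did at 2 of the 14 probes, against 0.537% of all probes. Both are listed for strain in males and not in females, and the WIK males that put them on the list enter this test, so the values describe the choice and are not independent evidence. For tdg.2 the male minus female difference in AB less that in WIK was -2.37, and TU less WIK gave -2.36 (adjusted p = 0.000913). For the listed stk35 probe these were -1.42 and -1.28 (adjusted p = 0.0123), while A_15_P739506, with -1.56 and -1.57, missed the threshold at 0.0596. On the scanner's processed signal neither was called (0.236 for tdg.2 and 0.64 for the listed stk35 probe). The stk35 call was also lost with median scaling (0.215). The deposited log2 values, with 1 value per accession for all stk35 probes together, gave no call for stk35 either (0.0817). Probe A_15_P739506 was called without AB male 3, TU male 2, TU female 1, TU female 3 or WIK male 3 (adjusted p from 0.0319 to 0.0486). lmbr1l gave 0.14 and nlgn3a probe A_15_P760716 gave 0.106 for its adjusted p, and the latter was called without TU male 2 (0.0242). The smallest adjusted p among the remaining probes was that of stk35 probe A_15_P744761 at 0.237. The probes of cmasa, ptgr1 and nedd4l and the other nlgn3a probes gave adjusted p from 0.419 to 0.995, which does not show that their strain difference was alike in both sexes.

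**Figure D4:**
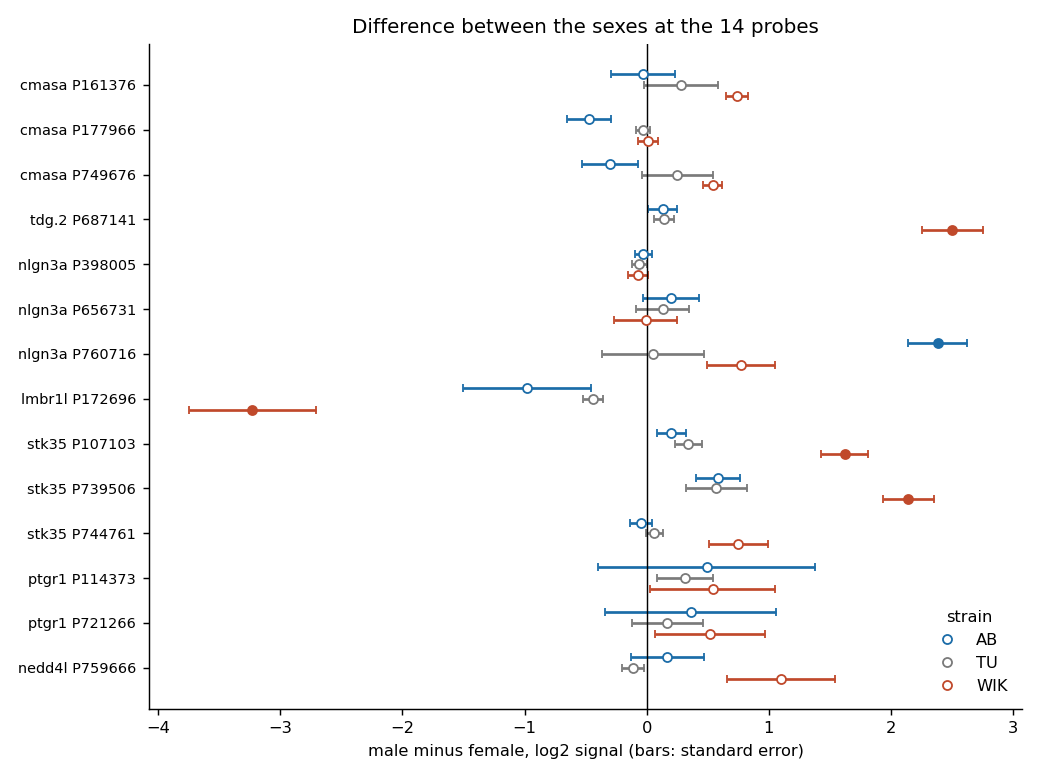
Male minus female log2 signal (x axis, bars for the standard error) at the 14 probes of the 7 genes (y axis) in AB, TU and WIK, 3 males against 3 females each, filled symbols for called differences. tdg.2 (2.50), lmbr1l (-3.23) and stk35 (1.62 and 2.14 at called probes) differ between the sexes in WIK, nlgn3a probe A_15_P760716 in AB (2.38), and no probe is called in TU.

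Genes of the same pathways were read from lists chosen by function, and their counts stand beside 3.66% of all probes called in males and 4.73% in females (7.04% without TU female 3). Up to 3 called genes of each list with the largest strain difference are named in each sex, most with levels or a pairwise difference. An adjusted p beside such a difference is that of the F test over all strains, not of the pair. In the sialic acid pathway 2 of 41 probes were called in males and 0 in females, and both were probes of npl, the lyase that splits sialic acid, which was lower in AB males, with a difference of -1.1 from WIK males (adjusted p = 0.0267). Of the base excision repair and demethylation genes, 2 of 31 probes were called in males, both of gadd45ba, a stress-induced demethylation factor that stood at 7.31 in AB, 8.51 in TU and 10.52 in WIK males. In females 3 were called, all of apex1, the endonuclease that cuts abasic sites, which was 1.92 higher in AB than in WIK. Among neuroligins, neurexins and their scaffolds 1 of 26 probes was called in each sex, at different probes of nrxn1b. The LMBR1 family had 0 of 5 probes called in males and 0 in females. In the STK35 list 1 of 7 probes was called in both sexes. It was pdlim1, the gene of the PDLIM1 partner, which was highest in WIK, with AB minus WIK at -1.32 in males and -1.16 in females (adjusted p = 0.0134 and 0.00303).

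Among prostaglandin and leukotriene genes 1 of 31 probes was called in males, the cyclooxygenase ptgs1, and 0 in females, where 6 were called without TU female 3. Of the Nrf2 target genes, which answer oxidants and in mammals include ptgr1, 2 of 40 probes were called in males and 3 in females. The quinone reductase nqo1 was lower in AB, with AB minus WIK at -1.56 in males and AB minus TU at -2.7 in females. The other gene called in males, gstp1.2, had AB minus TU at -1.53. The glutathione synthesis gene gclm and the haem oxygenase hmox1b were higher in AB females than in WIK females by 2.47 and 1.81. In the NEDD4 list 0 of 46 probes were called in males and 1 in females, the kinase gene sgk2a, which was highest in WIK at 8.15 against 6.55 in AB and 7.04 in TU. Clock genes had 19 of 61 probes called in males and 7 in females, or 13 in females without TU female 3. Among males nfil3-5 stood at 6.2 in AB, 8.01 in TU and 10.90 in WIK, nr1d2a at 6.60, 7.98 and 10.78, and nfil3-6 at 8.53, 7.22 and 11.26. These clock genes were thus highest in the same males as tdg.2, stk35 and nedd4l. Of the 19 clock probes called in males, however, 10 had WIK above both other strains and 7 had WIK below both. For AB these numbers were 9 and 7, and a probe can count for both strains. Of the 7 called in females, 6 had AB above both other strains and 1 below, while 0 had WIK above and 2 below. In females AB minus TU was -2.44 at bmal1a and 1.91 at bhlhe41, and AB minus WIK was 1.99 at tefa. Strain and hour of collection cannot be told apart in these AB differences. The part of clock genes in the results of the 7 genes was not tested. Median AB minus WIK over the lists was between -0.29 and 0.54 in males and between -0.09 and 0.46 in females, beside 0 and -0.01 over all probes.

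Probes with a pattern most like that of each listed probe were found by Pearson correlation over the 18 arrays, among 30887 to 30889 probes well above background on at least 3 arrays. The nearest to cmasa were dnajb9b, an endoplasmic reticulum cochaperone, at 0.971, and the cryptochrome gene cry5 at 0.965. dnajb9b lies on the same chromosome as cmasa and was itself high in AB at both of its probes, with 9.46 in males and 9.89 in females at A_15_P149861 against 6.33 to 6.72 in the other groups. tdg.2 was followed by si:dkey-16m19.2 at 0.964, rab6ba at 0.958 and anxa4 at 0.955, and stk35 by sec14l1 at 0.962 and by btg2 and anxa4 at 0.946. anxa4, an annexin that binds membranes, was thus among the nearest 3 of tdg.2 and of stk35, but not of nedd4l or lmbr1l. nlgn3a probe A_15_P656731 was closest to NM_001099247 and zgc:153724, both at 0.985, and A_15_P760716 to rnd3a at 0.971 and larp1b at 0.953. The nearest to lmbr1l was sdhaf2 at 0.91, then hsd17b12b at 0.873 and nkapd1 at 0.847. ptgr1 was followed by ENSDART00000129585 at 0.915, mxd3 at 0.913 and brip1 at 0.911, and nedd4l by si:dkeyp-80d11.1 at 0.93. Of the 20 most alike probes, 2 of 15 with a known chromosome shared that of cmasa and 2 of 16 that of lmbr1l, against 3.95% and 3.5% of all such probes. For the other listed probes the number was 0.

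Neighbouring genes were read in the order of the RefSeq gene table, as the 5 nearest protein-coding genes with a probe on either side. They gave 132 probes of 70 genes, of which 1 (0.758%) was called between strains in males and 12 (9.09%) in females, beside 3.66% and 4.73% of all probes. No neighbour of cmasa, tdg.2, nlgn3a or lmbr1l was called in either sex (0 probes). Near stk35 the 6 called probes all belonged to cyp2aa12, a cytochrome P450 gene whose probes may share sequence with its paralogs. Near ptgr1 txnb, a thioredoxin, was lower in AB females, with a difference of -3.31 from TU females (adjusted p = 0.0343), and zgc:153151 likewise at -1.82 (0.0269). Both adjusted p-values are from the F test over all strains, not from a test of that pair. Near nedd4l agxt2, dnajc21 and cel.2 were called in females and cel.2 in males as well. cel.2 is one of the exocrine pancreas markers, and at this probe it was higher in AB, by 5.57 over WIK in females. In males it was 3.48 higher in AB than in WIK, whereas the paper describes cel.2 as higher in WIK males. Of the called probes of pancreas markers, 5 had AB below both other strains and 1 above in males. In females these numbers were 2 and 1.

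**Figure D5:**
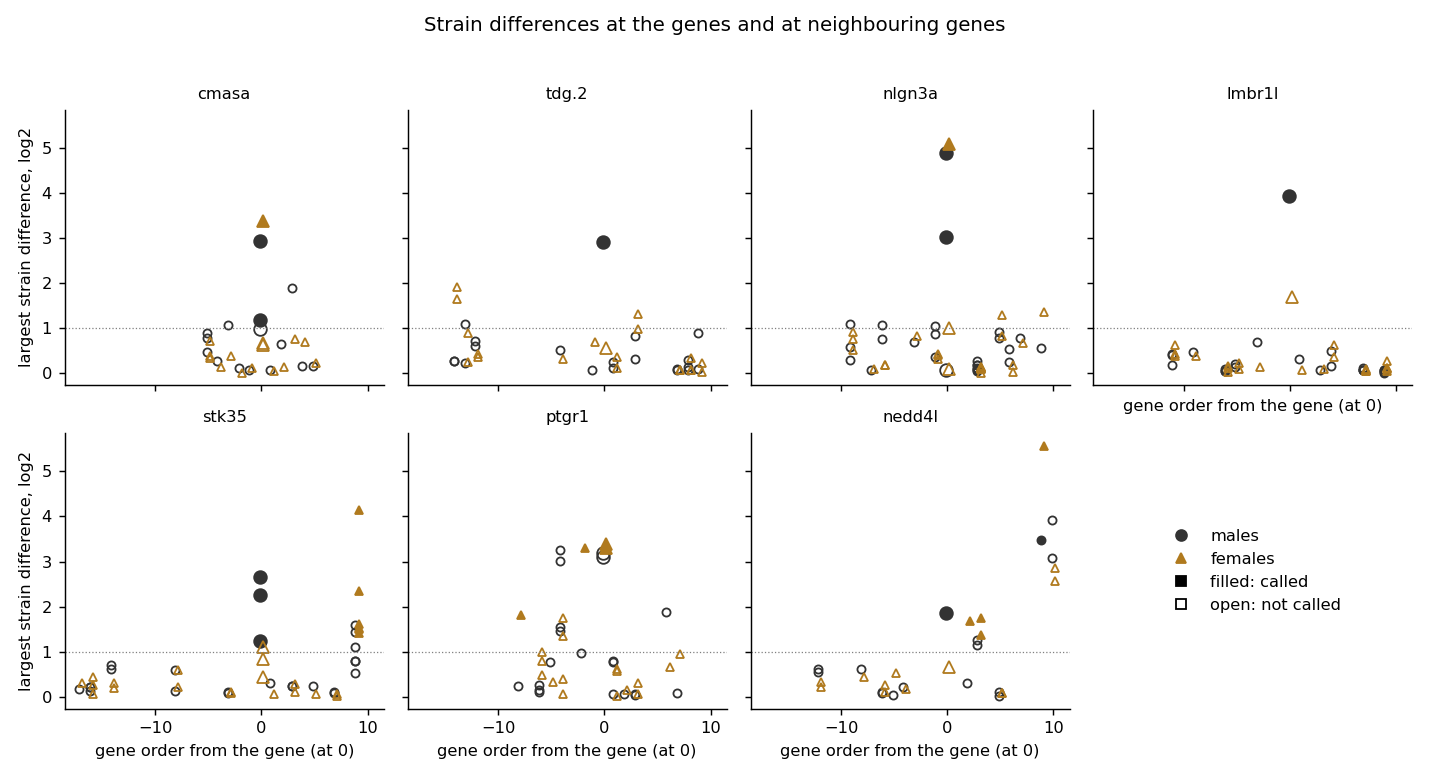
Largest pairwise strain difference on the log2 scale (y axis, size only) for probes of each gene (large symbols at 0) and of its neighbours by gene order (x axis), circles for males, triangles for females, filled symbols called; the dotted line marks a 2-fold difference. Called neighbours appear near stk35 (cyp2aa12), ptgr1 and nedd4l, and none near cmasa, tdg.2, nlgn3a or lmbr1l.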

How the data were processed

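Feature Extraction output was deposited for every array, with linear intensity per spot and local background, not yet normalized. A second deposited file holds log2 values per accession, made by the authors in limma by background subtraction, normalization and averaging, and served as an alternative only. Its log2 values correlated at 0.992 to 0.998 per array with those computed here.

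Median intensities were background-corrected with normexp (offset 50) and quantile-normalized over 18 arrays in limma 3.58.1 (R 4.3.3). Outlier spots and the 1417 controls were left out and spots of a probe averaged. Per the file headers, the scanner output came from Feature Extraction 11.0.1.1. Strains were fitted separately in each sex and sexes in each strain, as in the methods, which give the 2-fold threshold. The interaction used all 18 arrays. With 3 fish in a group the number of arrays limits precision. The p-values set a difference between groups against the spread of fish within groups, which includes that of their arrays.

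The RefSeq table (GRCz12tu) named 26043 probes (59.7%) by accession, and the study's lists raised this to 26315. The table's coordinates served only for the order of genes and for their chromosome. Probe positions are those of the study's probe annotation (danRer7). The array files hold no coordinates, so neighbours were taken by gene order in place of the planned distances. The genes, lists and tests were chosen with earlier results of these data known. Named were all probes of the 7 genes, up to 3 called genes of each list with the largest change, and the 3 probes most like each listed probe. Named neighbours, paralogs and TU female 3 were singled out after their values were seen.

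Array files put each male on a slide with the female of its strain and replicate number, on 6 slides scanned on 4 days. Same-numbered fish of different strains did not always share a slide or a scan day. No slide held both AB and WIK fish, so slide and strain cannot be told apart between them. TU and WIK shared a slide only at replicate number 2. Deviations from group means of same-numbered fish correlated at 0.20, 0.12 and 0.12 between the sexes of WIK. In no other comparison was every pair above 0.1, although all pairs of TU with WIK in both sexes and of AB with TU in females were. Each fit was checked on simulated arrays in which 200 of 43487 probes were changed. Of changes of 3 on the log2 scale, 92% were recovered for strains in males, 88% in females, 81% for sexes in WIK and 90% for the interaction, with 3, 5, 6 and 7 false calls. Smaller changes of 1.5 were recovered at 68%, 62%, 70% and 63% in the same order. Noise in the simulated arrays was normal and independent between probes and arrays, with no background floor and no slide or scan day. The rates therefore do not speak to probes with groups near background or to effects of slide and scan day. Alternatives were the background correction, normalization, deposited values, dim probes, thresholds, 1 fit of all arrays, blocks and leaving out each fish. Figures were drawn with matplotlib 3.10.9.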

Additional observations from a re-analysis of the deposited data

Results flagged for a closer look

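The strain difference differed between the sexes at tdg.2 probe A_15_P687141 and at stk35 probe A_15_P107103, by the interaction test in limma with Benjamini-Hochberg adjustment (adjusted p = 0.000913 and 0.0123). Both are listed for strain in males only, so this is not independent of their choice, and neither was called on the scanner's processed signal (0.236 and 0.64). At tdg.2 the mean log2 signal was 9.16 in WIK males and 6.66 in WIK females, against 6.10 to 6.25 in the groups of AB and TU. At stk35 it was 8.65 in WIK males and 7.03 in WIK females, against 6.39 and 6.19 in AB and 7.04 and 6.70 in TU. Groups of 3 fish were too small to look for single outlying fish by a rule.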

How the results depend on the processing

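Every listed probe kept the direction of its strain difference in the sex in which it was listed under every alternative run. In females, AB minus the mean of the other strains at nlgn3a probe A_15_P760716 was 0.2 in the main setting. It was 0 without AB female 2, 0.4 without AB female 3 and 0.78 with median scaling. TU minus WIK at this probe was -1.01 in females in the main setting. Sizes at probes with dim groups moved with the background setting. For cmasa in males, 2.91 in the main setting, it was 3.75 without background correction, 3.93 with an offset of 16 and 7.83 on the scanner's processed signal, which was also scaled differently. With arrays scaled to the median instead of quantile-normalized, 6 of the 14 probes were called between strains in males, 2 in females, 0 between the sexes of WIK and 1 in the interaction. With the scanner's processed signal, 1 was called between the sexes of WIK and 0 in the interaction. The deposited log2 values, counted per accession and not per probe, gave 2 and 1. With 1 fish left out, calls ranged from 7 to 11 for strains in males, 3 to 5 in females, 0 to 1 for sexes in AB, 0 to 0 in TU, 0 to 3 in WIK and 2 to 4 in the interaction.

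Of the 5 listed probes of tdg.2, lmbr1l, stk35, nedd4l and ptgr1 in the sex that had not listed them, 0 were called, with 1 called with no background correction, 2 with an offset of 16, 1 with dim probes left out, 1 with 1 fit of all arrays and 0 to 1 with a fish left out. These were ptgr1 in males (adjusted p = 0.0481 with an offset of 16, 0.0391 with dim probes left out and 0.00599 with 1 fit of all arrays) and stk35 in females (0.0378 with no background correction and 0.0256 with an offset of 16).

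In fits with a replicate block, 0 probes were called between the sexes of AB, 1 in WIK and 4 in the interaction, where nlgn3a probe A_15_P760716 and lmbr1l were added (both adjusted p = 0.0324). Calls with the block in females gained nlgn3a probe A_15_P760716 (0.00986) and stk35 probe A_15_P739506 (0.0161), and in males lost cmasa probe A_15_P749676 (0.0619). Same-numbered males and females of a strain share a slide, but only in WIK did the deviations of every such pair correlate above 0.1. With scan day as a block, 0, 1 and 5 were called for the sexes of AB, of WIK and the interaction, and nlgn3a probe A_15_P760716 (0.0769), nedd4l (0.0945) and cmasa probe A_15_P749676 (0.107) were lost for strains in males. In these cases the cause was not tested.

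Over all probes the main counts were 1598 for strains in males, 2064 in females, 908 for sexes in AB, 0 in TU, 607 in WIK and 234 in the interaction. Over the alternatives they ranged from 493 with median scaling to 2946 without TU male 2, from 460 with median scaling to 3070 without TU female 3, from 192 without AB female 2 to 1685 with 1 fit of all arrays, from 0 to 353 without TU female 3, from 66 with median scaling to 937 without WIK male 3, and from 40 with median scaling to 1303 without TU male 2, in the same order. With 3 fish in a group and 44.9% to 67.3% of spots well above background, small differences at dim probes were not detectable.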
